A study of Mus musculus with 9 samples.

Results

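The TRIM genes encode a family of ubiquitin ligases, and their ribosome footprints were measured in TTP-deficient mouse macrophages with a vector for GFP alone, for GFP-TTP or for the mutant GFP-TTP-AA. Members were all genes whose symbol starts with Trim followed by a digit. There were 47 such genes among the 16921 genes listed, and 33 of them had a mean of at least 10 fitted counts over the 9 libraries. The same minimum was passed by 10103 genes in all. The cells were immortalized bone marrow-derived macrophages (BMDMs), transformed with c-myc and an activated Ras, selected as CD11b and F4/80 positive, and then transduced with a tet-inducible vector. All 3 lines lacked endogenous TTP (Zfp36), a protein that binds AU-rich sequences in mRNA and brings about mRNA decay. GFP-TTP-AA carries alanines in place of the serines that the kinase MK2 phosphorylates. Each line was treated with doxycycline (1 µg/ml) for 6 h and with LPS (1 µg/ml) for 1 h, and 3 libraries were made per line. Each construct was carried by its own transduced line, so that construct and line cannot be told apart.

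TRIM proteins share an N-terminal order of a RING finger, B-boxes and a coiled coil, followed by a C-terminal part that differs between subfamilies. The RING finger recruits an E2 enzyme and transfers ubiquitin to a substrate. In macrophages the family is known for antiviral sensing and restriction, for control of NF-kB and interferon signalling, and, in the TIF1 branch, for repression of transcription. Several members are induced by type I interferon, which acts through interferon-stimulated response elements (ISREs) in promoters.

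The deposited values per library are the counts that the authors' model fitted for each gene. For every gene they are the product of a library factor, a term for the line and a term for the replicate number. They therefore hold no scatter of their own, and whether the libraries of 2 lines overlap follows from the sizes of these terms. The error of each log2 fold change is the standard error (SE) that the authors deposited with it. Fold changes are shrunken towards 0, as in that model, and a Wald test was made from each value and its SE, with Benjamini-Hochberg adjustment over all genes tested and a threshold of 0.05. Nothing in the labels says that the 3 libraries of a line came from separate cultures, so the p-values refer at most to the spread between these libraries. The SEs belong to the shrunken fit and do not grow steadily as counts fall. In each comparison they were 0.25 for Zfp36 (mean 974.9) and Trim12c (mean 25.2), and 0.24 for Trim29 (mean 12.5). How far an SE reflects the scatter of that gene itself cannot be read from fitted values. The 3 comparisons share libraries. A footprint level combines the amount of an mRNA and its translation, and in these bulk samples fewer cells of a type and less RNA per cell cannot be told apart.

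Summed fitted counts per library lay between 2570290 and 12804500, and the precision of the low members is limited by this depth. Zfp36, the gene of the construct, had fitted levels of 459.5 in GFP cells, 928 in GFP-TTP cells and 1532 in GFP-TTP-AA cells. These are shrunken fitted values, so that the value in GFP cells is not a measured level in the TTP-deficient line. Zfp36 also passed the test in GFP-TTP-AA against GFP-TTP cells, at 0.72 on the log2 scale (SE 0.25, Wald adjusted p = 0.0411). Of the 10 macrophage markers, 8 were above the minimum, Mertk was below it and 1 was not listed. Their summed level ranged from 88342 to 106596 in GFP cells, from 70451 to 83603 in GFP-TTP cells and from 100078 to 120872 in GFP-TTP-AA cells. Most of this sum was Lyz2, with a mean of 60771 fitted counts. Lyz2, Emr1 and Fcgr1 fell in GFP-TTP against GFP cells, and these and Spi1 rose in GFP-TTP-AA against GFP-TTP cells, while Itgam and Cd14 had values of 0.10 and 0.11 in the first of these comparisons. No listed marker of fibroblasts, T cells or B cells reached the minimum, and of the neutrophil markers S100a8 did, at a higher level in GFP-TTP-AA than in GFP-TTP cells (log2 fold change 1.12, SE 0.25, Wald test with Benjamini-Hochberg adjusted p = 0.000259). The part of these marker differences in the results for the Trim genes was not tested.

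The promoters of the Trim genes are shown first, because most of those with a shared sequence feature lie together on chromosome 7. RefSeq windows from 250 bases before to 50 bases after a transcript start (GRCm38) were found for 35 of the 47 genes, 23 of them among the 33. An ISRE-like motif, GAAANNGAAA on either strand (TTTCNNTTTC when read on the other), was present in a window of 9 of the 35 genes, or 25.7%, and in 6 of the 23, or 26.1%. The same motif was found for 3.99% of all 27025 genes with a window, and for 15 of 31 interferon-stimulated genes of other families (48.4%). Of the interferon-linked Trim genes with a window, Trim25, Trim56, Trim38, Trim6, Trim30b and Trim30c held no match. Trim2, which is not on the interferon-linked list, held a match in 1 of its windows, 28 to 37 bases after the start. The matches of the Trim genes are printed below 5′ to 3′ on the strand of the gene, with the motif letters in capitals. In Trim21 and Trim26 a pair of overlapping matches is capitalized as 1 stretch.
Trim21, chr7:102565447-102565476, minus strand: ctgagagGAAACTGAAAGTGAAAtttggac
Trim34a, chr7:104244457-104244486, plus strand: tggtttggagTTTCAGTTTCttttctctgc
Trim5, chr7:104288136-104288165, minus strand: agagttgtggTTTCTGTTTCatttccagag
Trim12a, chr7:104315466-104315495, minus strand: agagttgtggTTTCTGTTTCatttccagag
Trim12c, chr7:104353359-104353388, minus strand: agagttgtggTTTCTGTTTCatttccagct
Trim30a, chr7:104465210-104465239, minus strand: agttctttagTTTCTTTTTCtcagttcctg
Trim30a, second start, chr7:104446104-104446133, minus strand: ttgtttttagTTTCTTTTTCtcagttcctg
Trim30d, chr7:104507871-104507900, minus strand: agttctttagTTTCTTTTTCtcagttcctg
Trim26, chr17:36836979-36837008, plus strand: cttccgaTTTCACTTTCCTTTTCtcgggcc
Trim2, chr3:84212791-84212820, minus strand: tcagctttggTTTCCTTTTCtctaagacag

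The printed windows of Trim5 and Trim12a are identical over their 30 bases, and so are those of Trim30a at its first start and of Trim30d. A match is a description of letters in these windows and not a binding site. Trim30a, the one of these genes that passed the test in a comparison, has its match 36 to 27 bases before the annotated start of the gene. The 250 bases that precede that start, chr7:104465194-104465443 on the minus strand, are shown with the match in capitals.
Trim30a upstream: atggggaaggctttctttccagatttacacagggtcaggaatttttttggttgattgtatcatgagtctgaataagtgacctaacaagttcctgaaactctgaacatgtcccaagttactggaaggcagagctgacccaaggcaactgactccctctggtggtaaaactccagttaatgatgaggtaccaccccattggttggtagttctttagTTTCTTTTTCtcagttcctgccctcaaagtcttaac

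Footprints on the family were dominated by a few members. Trim28 and Trim25 together made up 43.8% of the summed fitted counts of all 47 genes, and the family as a whole took between 0.132% and 0.148% of each library. The median of the 33 was 122.3 fitted counts, against 210.6 for all genes above the minimum. These shares and medians are of fitted counts, not corrected for coding length. Levels of single genes are given next per 100 codons, with the coding length of the principal GENCODE transcript. On this scale Trim28, the corepressor KAP1 that silences retroelements, was highest at 273.9, followed by Trim25, which ubiquitinates in the RIG-I pathway, at 223.3. Trim44, which lacks a RING finger, stood at 99.5, Trim35 at 93.7 and Trim27 at 84.8 per 100 codons. The median member had 21.3 and the lowest, Trim29, had 2.14. The 5 highest genes lay above the other members in each line, as the plot of levels per 100 codons shows.

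**Figure D1:**
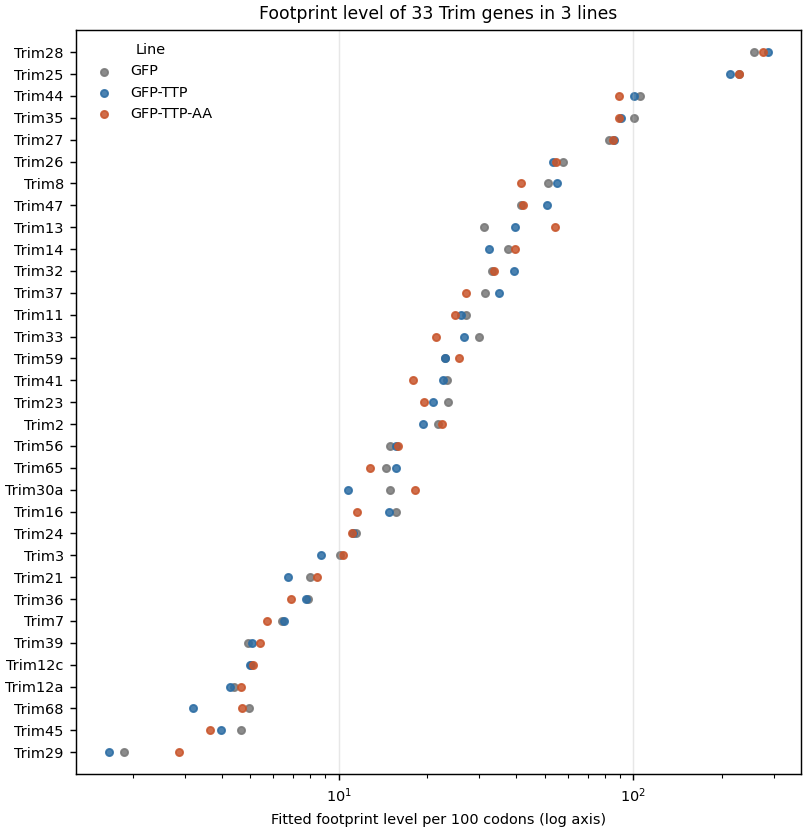
Fitted footprint level per 100 codons (log axis) of the 33 Trim genes above the minimum, with 1 point for each line (grey GFP, blue GFP-TTP, orange GFP-TTP-AA). The genes span from 2.14 for Trim29 to 273.9 for Trim28, and for most genes the 3 points lie close together.

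The other 14 genes were under the minimum and no fold change is given for them. These were Trim5, Trim66, Trim62, Trim34a, Trim46, Trim30d, Trim38, Trim30b, Trim69, Trim50, Trim52, Trim6, Trim30c and Trim17. The highest of them, Trim5, reached a mean of 5.56 fitted counts, and 8 had a mean below 1. Without the minimum, 36 members could be tested in both comparisons with GFP-TTP-AA, and the members called were the same.

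The first comparison asked how wild-type TTP changed footprints relative to GFP alone. None of the 33 members passed the test in GFP-TTP against GFP cells, where 2.09% of all 9938 genes tested did, 208 genes in number (Wald test on the deposited SE). At an unadjusted p under 0.05 there were 2 members, where 11.3% of all genes tested passed. These were Trim68 and Trim30a, both lower with GFP-TTP. Fold changes were negative for 22 members and positive for 11, while 50.5% of all genes tested were positive. The median of the members was -0.05 on the log2 scale against 0.00258 for all genes tested. The lowest value was -0.64 and the highest 0.35. With the SEs of the members, from 0.12 to 0.25, a change had to reach between 0.41 and 0.82 to be called.

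The second comparison set the mutant that MK2 cannot phosphorylate against GFP. One member, Trim13, rose in GFP-TTP-AA against GFP cells, which is 3.03% of the 33, where 3.05% of all 10103 genes tested passed in either direction and 1.71% were higher. The share of members called was thus close to that of all genes. On the log2 scale the median was -0.01 for the members and -0.000256 for all genes, and 16 members were positive and 17 negative.

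The third comparison set both TTP forms against each other, in lines that also differed in Zfp36 footprints. Trim30a and Trim29 rose in GFP-TTP-AA against GFP-TTP cells and no member fell. That is 6.06% of the members, where 10.3% of all 10103 genes tested passed in either direction and 5.49% were higher. The median of the members was -0.01 on the log2 scale and their values ranged from -0.41 to 0.78, with 15 positive and 18 negative. The median absolute change was 0.18 for the members and 0.19 for all genes.

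**Figure D2:**
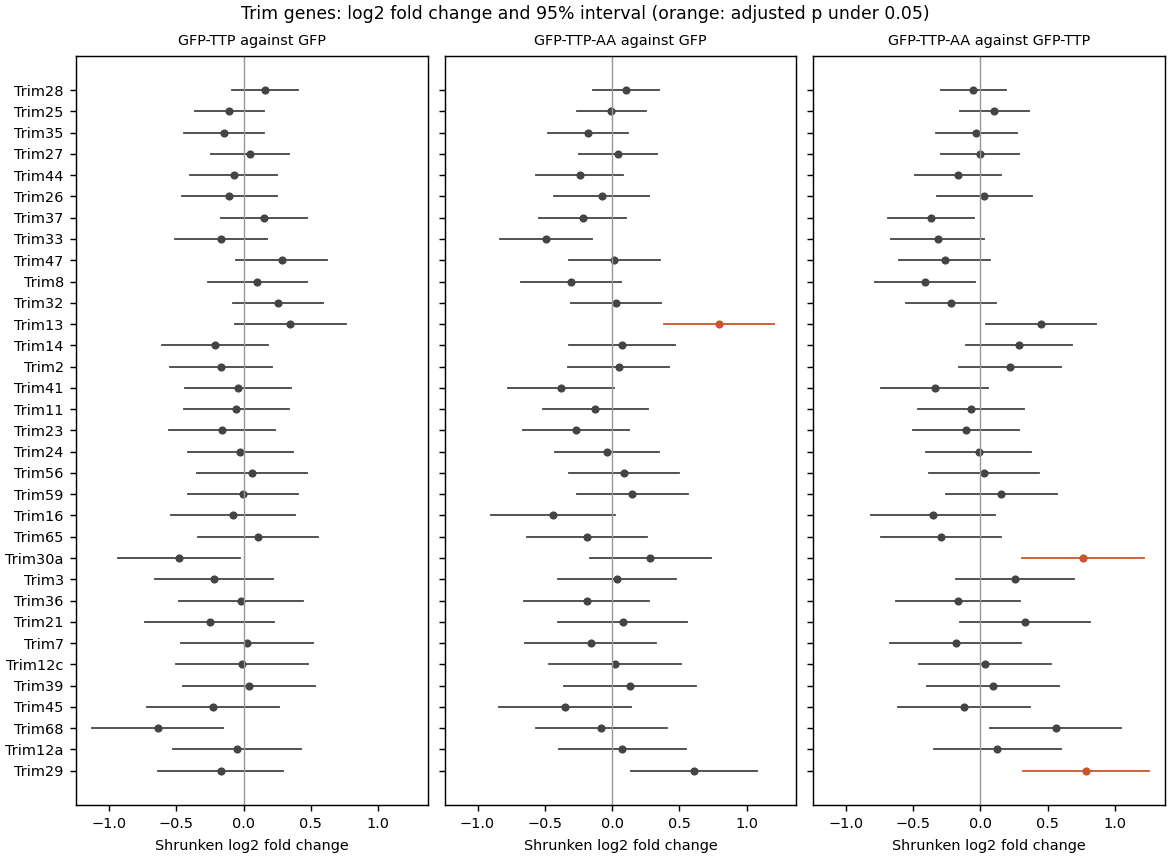
Shrunken log2 fold change (points) and 95% interval (1.96 SE, lines) of the 33 Trim genes in 3 comparisons, from the highest mean fitted count at the top to the lowest at the bottom. Orange marks an adjusted p under 0.05: none with GFP-TTP against GFP, Trim13 with GFP-TTP-AA against GFP, and Trim30a and Trim29 with GFP-TTP-AA against GFP-TTP.

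Trim13 is a RING ligase held in the endoplasmic reticulum membrane. Its scaled fitted counts in replicates 1, 2 and 3 were 87.9, 122.7 and 190.5 in GFP cells, 111.7, 155.9 and 242.1 in GFP-TTP cells, and 152.5, 212.9 and 330.5 in GFP-TTP-AA cells. Within each replicate number GFP-TTP-AA was highest and GFP lowest, but the lines overlap, since replicate 3 of GFP lies above replicate 1 of GFP-TTP-AA. The log2 fold change of GFP-TTP-AA against GFP was 0.80 (SE 0.21, 95% interval 0.39 to 1.21, adjusted p = 0.00955 by the Wald test). The replicate number moved Trim13 more than the construct did, with replicate 3 above replicate 1 by 1.12 on the log2 scale, the largest such difference among the 33. Against GFP-TTP the value was 0.45 (SE 0.21, Wald adjusted p = 0.17), and GFP-TTP against GFP gave 0.35 (SE 0.21, Wald adjusted p = 0.562). Trim13 lies on chromosome 14 (chr14:61598247-61605946, plus strand, GRCm38), whose genes were at a median of -0.04 (log2) for GFP-TTP-AA against GFP. Of its coding windows of 30 bases, 40.3% occur also in the processed pseudogene Gm9359 on chromosome 12, so its count is uncertain where reads could be placed at either locus. Trim59, the other membrane-anchored member, shares 31.9% of its windows with the pseudogenes Gm15381 and Gm4921. Its levels were 92.6, 92.4 and 103 fitted counts in GFP, GFP-TTP and GFP-TTP-AA cells, and it passed in no comparison (GFP-TTP-AA against GFP 0.15, SE 0.21).

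Trim30a, a mouse gene induced by interferon and known as a brake on Toll-like receptor signalling, was lowest with wild-type TTP. Its scaled fitted counts in replicates 1, 2 and 3 were 71.3, 71 and 80.4 in GFP cells, 51.2, 50.9 and 57.7 in GFP-TTP cells, and 86.9, 86.5 and 98 in GFP-TTP-AA cells. As fitted, all 3 GFP-TTP libraries lie below all others, and those of GFP and GFP-TTP-AA do not overlap either. This follows from the sizes of the fitted terms, with replicate 3 above replicate 1 by 0.17 (log2), and adds nothing to the test. GFP-TTP-AA exceeded GFP-TTP by 0.76 on the log2 scale (SE 0.23, 95% interval 0.31 to 1.22, Wald adjusted p = 0.0145). Neither line differed from GFP beyond the threshold, at -0.48 for GFP-TTP (SE 0.23, Wald adjusted p = 0.396) and 0.29 for GFP-TTP-AA (SE 0.23, Wald adjusted p = 0.657). Trim30a shares 25.6% of its coding windows with other genes, mainly Trim30d and Trim30c. Its count is therefore uncertain where reads could be placed at more than 1 locus. Trim30d and Trim30c were at means of 1.84 and 0.187, which rest on the same placement of reads.

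Trim29, a member without a RING finger that is known from epithelia and from alveolar macrophages, had the lowest mean of the 33. In replicates 1, 2 and 3 the scaled fitted counts were 11.6, 10.3 and 11.1 in GFP cells, 10.3, 9.11 and 9.89 in GFP-TTP cells, and 17.8, 15.7 and 17 in GFP-TTP-AA cells. As fitted, the GFP-TTP-AA libraries all lie above the others, while GFP and GFP-TTP overlap. This too follows from the sizes of the fitted terms. GFP-TTP-AA against GFP-TTP gave 0.78 (SE 0.24, 95% interval 0.32 to 1.25, Wald adjusted p = 0.0155), and GFP-TTP-AA against GFP gave 0.61 (SE 0.24, Wald adjusted p = 0.152). With a mean of 12.5 the gene passes a minimum of 10 and fails one of 50, at which 1 member, Trim30a, is called in this comparison.

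**Figure D3:**
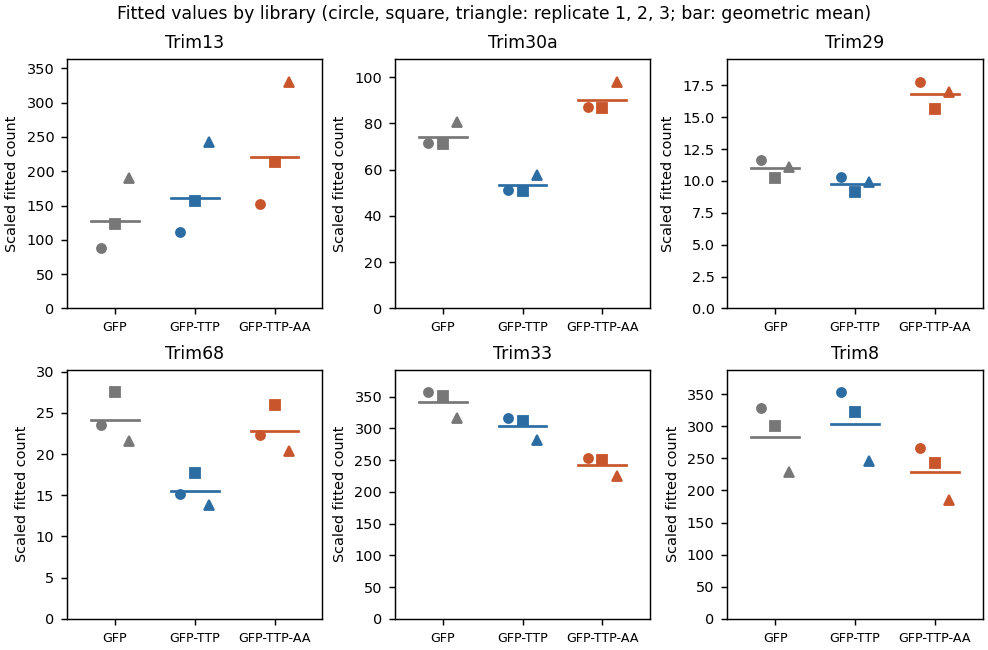
Scaled fitted counts of 6 Trim genes in each of the 9 libraries (linear axis from 0; circle, square and triangle for replicates 1, 2 and 3) with the geometric mean of each line as a bar. Trim13 rises from GFP to GFP-TTP-AA and with the replicate number, Trim30a is lowest and Trim29 and Trim68 are low with GFP-TTP, and Trim33 and Trim8 are lowest with GFP-TTP-AA.

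Some further members had large values that did not pass the test. Trim68, a ligase that restrains interferon production, had scaled fitted counts of 23.6, 27.5 and 21.6 in GFP, 15.1, 17.6 and 13.9 in GFP-TTP cells and 22.3, 26 and 20.4 in GFP-TTP-AA cells. The GFP-TTP libraries lie below all others, and GFP and GFP-TTP-AA overlap, again by the sizes of the fitted terms. Its log2 fold changes were -0.64 for GFP-TTP against GFP (SE 0.25, Wald adjusted p = 0.21) and 0.56 for GFP-TTP-AA against GFP-TTP (SE 0.25, Wald adjusted p = 0.144). Trim33, a TIF1 protein that acts on SMAD signalling, had fitted levels of 341.3, 303.1 and 243 in GFP, GFP-TTP and GFP-TTP-AA cells, with -0.49 for GFP-TTP-AA against GFP (SE 0.18, Wald adjusted p = 0.104). On chromosome 3, where Trim33 lies, all genes together had a median of -0.09 in that comparison. Trim8, a regulator of NF-kB and STAT signalling, had 282.7, 303.6 and 228.4 and a value of -0.41 for GFP-TTP-AA against GFP-TTP (SE 0.19, Wald adjusted p = 0.166). Trim37, a peroxisomal and centrosomal ligase, had 302.5, 335.5 and 259.9 and -0.37 in the same comparison (SE 0.16, Wald adjusted p = 0.146). The other values among the 10 largest belonged to Trim16, a member without a RING finger (-0.44 for GFP-TTP-AA against GFP, SE 0.24), Trim41 (-0.38, SE 0.20) and Trim45 (-0.35, SE 0.25), also for GFP-TTP-AA against GFP. Trim16, Trim41 and Trim37 lie on chromosome 11, whose genes had medians of -0.08 for GFP-TTP-AA against GFP and -0.11 for GFP-TTP-AA against GFP-TTP. Trim8 lies on chromosome 19, with a median of -0.09 for GFP-TTP-AA against GFP-TTP, and Trim45 on chromosome 3. Trim41 overlaps Rack1, a gene at 15081 fitted counts on the opposite strand, so its count is uncertain unless strand was used in counting.

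The members were next taken by role. Of the 9 interferon-linked members above the minimum, 1 rose in GFP-TTP-AA against GFP-TTP cells, Trim30a, and none passed in the other comparisons. In the former comparison 5.49% of all genes were called higher. In the others, 2.09% (GFP-TTP against GFP) and 3.05% (GFP-TTP-AA against GFP) of all genes passed in either direction. Their median was -0.11 for GFP-TTP against GFP, 0.07 for GFP-TTP-AA against GFP and 0.10 for GFP-TTP-AA against GFP-TTP, and 8 of the 9 values in the last were positive. Trim25, the most abundant of them, had 1450, 1346 and 1444 fitted counts in GFP, GFP-TTP and GFP-TTP-AA cells. The 95% interval of its GFP-TTP-AA against GFP-TTP difference ran from -0.16 to 0.36 on the log2 scale. Trim26, which acts in antiviral signalling, had 313.8, 291.8 and 297.4 with an interval from -0.32 to 0.38, and Trim14, a mitochondrial adaptor of antiviral signalling without a RING finger, had 165.6, 142.8 and 174.4 with an interval from -0.11 to 0.68. Trim14 overlaps Nans, at 871.4 fitted counts on the opposite strand, and its count carries the same uncertainty as that of Trim41.

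For the other roles, the shares of all genes that passed were 2.09%, 3.05% and 10.3% in the 3 comparisons in turn. Roles of so few members cannot be told apart from these shares by their counts. In the TIF1 branch 3 of 4 members were above the minimum and none passed. Trim28 had 2139, 2385 and 2301 fitted counts in GFP, GFP-TTP and GFP-TTP-AA cells, and the interval of GFP-TTP-AA against GFP-TTP was -0.30 to 0.19. Trim24, a nuclear receptor cofactor of this branch, was at a mean of 118.5 with values of -0.02, -0.04 and -0.01 in the 3 comparisons. Of 4 NHL and filamin domain members none passed; Trim32, a ligase with NHL repeats, had 216.7, 258.2 and 221.3 fitted counts and Trim2, a neuronal ligase, had 165.5, 147.1 and 171.3. Both single-domain members, Trim37 and the ARF-like Trim23 (134.7, 120.3 and 111.8 fitted counts), were lower with GFP-TTP-AA than in either other line, without passing the test. None of the 8 signalling regulators passed, and Trim35 (520.8, 470 and 459.9) and Trim27 (426, 440.2 and 438.6) were the most abundant of these. Trim36, the microtubule-binding COS-box member above the minimum, had 57.2, 56.4 and 50.3 fitted counts in the 3 lines, and its replicate 3 exceeded replicate 1 by 0.94 on the log2 scale. Of the members without a RING finger, Trim44 had 364.5, 346.4 and 308.5. Trim29 was the only one of these 4 members to pass, in GFP-TTP-AA against GFP-TTP cells. In all, 5 members differed by at least 0.5 between replicates 3 and 1 (Trim13, Trim65, Trim36, Trim11 and Trim8), and 7.7% of all genes above the minimum did so.

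Along chromosome 7, from Trim21 to Trim3, 12 listed family genes lie in order, of which 6 were above the minimum. Trim34b, a chromosome 7 gene with coding windows shared with Trim34a, was not listed. Of the 6, Trim12a, Trim12c and Trim30a lie close together, within chr7:104299894-104465193. Trim21 (from chr7:102557921), Trim68 (from chr7:102677582) and Trim3 (from chr7:105604463) lie apart from them. In GFP-TTP against GFP cells the values were -0.25 for Trim21 (an antibody receptor and ligase), -0.64 for Trim68, -0.05 for Trim12a, -0.01 for Trim12c, -0.48 for Trim30a and -0.22 for Trim3. All 6 were negative and none passed. In GFP-TTP-AA against GFP-TTP cells they were 0.33, 0.56, 0.13, 0.03, 0.76 and 0.26, all positive, and Trim30a passed the test. Trim28, also on chromosome 7 but outside this stretch, had the opposite signs, 0.16 and -0.05. Beside them, the median of all genes of chromosome 7 was 0.01 in each of these comparisons. Positive values made up 50.5% and 49.9% of all genes tested in these comparisons. Both comparisons share the GFP-TTP libraries, so the opposite signs are not independent. The coding windows of Trim12a and Trim12c are shared with other genes at 60.2% and 58.1%, mainly with Trim5 and each other, so their low values are uncertain. Trim12a, Trim12c and Trim21 hold an ISRE-like match like that of Trim30a, and none of these 3 passed in any comparison. Trim68 holds none in its window.

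**Figure D4:**
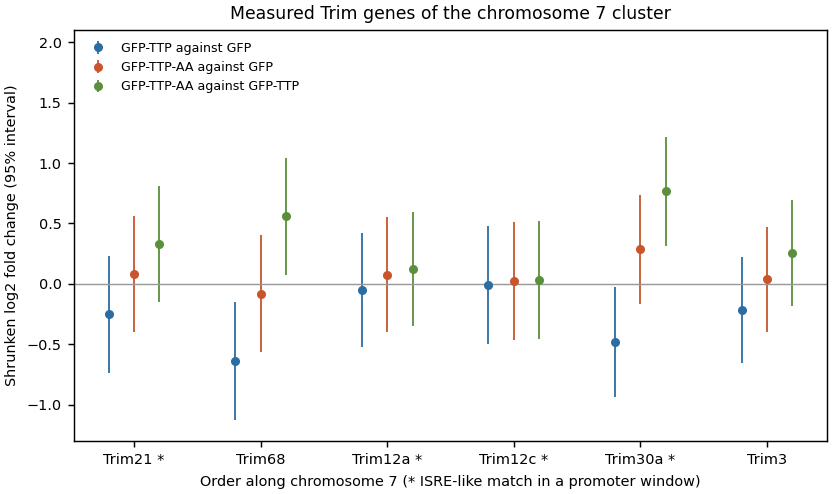
Shrunken log2 fold change with 95% interval of the 6 Trim genes above the minimum from Trim21 to Trim3 on chromosome 7. The genes stand in order along the chromosome but evenly spaced, and only Trim12a, Trim12c and Trim30a lie close together. Colours mark GFP-TTP against GFP (blue), GFP-TTP-AA against GFP (orange) and GFP-TTP-AA against GFP-TTP (green). Asterisks mark genes with an ISRE-like match; the blue values are all negative, from -0.01 to -0.64, and the green ones all positive, from 0.03 to 0.76.

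The other interferon-stimulated genes of the list moved further than the Trim genes. This list and that of the interferon-linked members were drawn up with earlier results of these data known. Their counts and medians are therefore a description only. Of 34 such genes, which include sensors, 2′-5′ oligoadenylate synthetases and guanylate-binding proteins, 21 rose and none fell in GFP-TTP-AA against GFP-TTP cells, with a median of 0.88 (log2) against 0.10 for the 9 interferon-linked Trim genes; 5.49% of all genes were called higher and 4.76% lower. In GFP-TTP against GFP cells 13 of 33 fell and none rose, with a median of -0.55, where 1.29% of all genes were called lower. In GFP-TTP-AA against GFP cells 4 of 34 rose, where 1.71% of all genes were called higher. Examples for GFP-TTP-AA against GFP-TTP were Lgals3bp, a secreted glycoprotein (3.32, SE 0.15), Oasl1, an oligoadenylate synthetase-like protein (2.52, SE 0.23), and Ifih1, the RNA sensor MDA5 (2.42, SE 0.25). Whether the Trim genes and this list differ was not tested. Of the 16 RIG-I and STING signalling partners, with which several TRIM ligases work, 3 rose in this comparison. These were the sensors Ifih1, Ddx58 (RIG-I, 1.29, SE 0.22) and Dhx58 (0.77, SE 0.25), which also stand on the interferon list. Pml, a gene with the TRIM domain order but no Trim symbol, rose by 0.50 (SE 0.16, Wald adjusted p = 0.0203) and was the one of 4 such genes above the minimum.

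**Figure D5:**
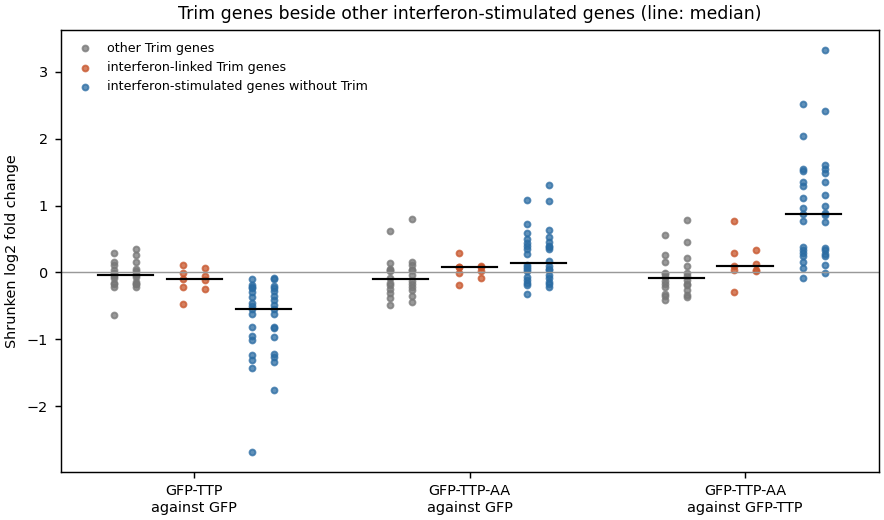
Shrunken log2 fold change in the 3 comparisons for the other Trim genes (grey), the 9 interferon-linked Trim genes (orange) and the interferon-stimulated genes of other families (blue), 1 point per gene with the median as a line. The medians of the blue genes are -0.55, 0.14 and 0.88, and those of the orange genes are -0.11, 0.07 and 0.10. Both lists were drawn up with earlier results of these data known.

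Because TTP binds AU-rich elements, the 3′ untranslated regions of the principal transcripts were searched for the pentamer ATTTA, the heptamer TATTTAT and the nonamer TTATTTATT on the transcribed strand, each shorter motif being contained in the longer. The pentamer was present in 24 of 33 members (72.7%) and in 68.1% of 9894 genes above the minimum. The 3′ regions of the members were longer, with a median of 1358 bases against 1026, and per kilobase they held 1.75 pentamers against 1.84 for all genes. The heptamer was present in 9 members (27.3%) and in 28.7% of all, and the nonamer in 4 members (12.1%) and in 7.44% of all. The members with a nonamer were Trim56, Trim16, Trim3 and Trim36. Trim3, Trim16 and Trim56 are shown as examples, with the nonamer, the known TTP element, in capitals and 10 bases on either side; the site of Trim36 is not printed.
Trim3, chr7:105610877-105610905, minus strand: cggttgcactTTATTTATTcggttcttgc
Trim16, chr11:62842859-62842887, plus strand: caaagactatTTATTTATTgtaagaacac
Trim56, chr5:137108472-137108500, minus strand: gaggatttttTTATTTATTtatttttttt

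Trim56 holds 2 nonamers, of which the first is shown. Its log2 fold changes were 0.06, 0.09 and 0.03 in the 3 comparisons. None of the 4 members passed, where 2.09%, 3.05% and 10.3% of all genes tested did. Among the members that did pass, Trim13 and Trim29 hold no pentamer in the principal transcript, and Trim30a holds 1 pentamer and no heptamer. Trim33 holds 18 pentamers and 2 heptamers, which are the most pentamers of the 33. These letters describe the annotated transcript, which need not be the one present in these cells.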

How the data were processed

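Ribosome footprint libraries (ARTseq, single-end, HiSeq2500) were made from 3 lines with 3 libraries each. Per the labels and the study's methods, the authors trimmed reads with Trim Galore, aligned them with TopHat2 (2.0.12 in the submitters' processing notes) to GRCm38, counted them with HTSeq and fitted DESeq2 (1.6.3) with condition and library date. The deposited values per library are a signal: fitted counts, not observed ones. After removal of a term per condition and per replicate number, the residual SD was 6e-14 on the log2 scale, and no value was 0. The deposited comparison tables also hold log2 fold changes, SEs on the log2 scale and p-values of the authors, of which the SE and the mean count alone entered the values here.

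Each column was divided by a library size factor, recovered from the 4646 genes with a deposited mean below 1, whose condition and replicate terms are shrunken to about 0. The factors ranged from 0.415 to 2.14. Several cut-offs, with mean or median, were tried, and their outcome was compared with the offset implied by the authors' fold changes before this one was chosen, so the choice was made after seeing the data. Medians over the genes of at most 0.15, the first version tried, shift every log2 fold change by 0.0108, 0.00373 and 0.00708 in GFP-TTP against GFP, GFP-TTP-AA against GFP and GFP-TTP-AA against GFP-TTP. Fold changes are differences of log2 means of scaled values, tested with their SE (two-sided Wald test, normal distribution; NumPy 2.4.6, SciPy 1.17.1, pandas 2.3.3, Python 3.11.15). The computation of the test was checked on simulated data whose noise was drawn with the deposited SEs. That check could not show whether these SEs are right. Observed counts were not used here, so that no count test could be made. The 11 lines that repeat a gene were dropped.

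The members and gene lists were chosen with earlier results of these data known. Members named with values were all those past the threshold, the 10 largest changes, the 5 highest means and the 2 highest of each role. Of other lists, the rule was at most 3 genes past the threshold per comparison. The macrophage markers did not follow this rule. For them 4 genes past the threshold in GFP-TTP-AA against GFP-TTP were named, and also Itgam and Cd14, which passed in no comparison. Trim24, Trim56, Trim21, Trim3, Trim12a, Trim12c, Trim47, Trim65 and Trim11, outside this rule, were added after their values were seen, for their sequence, position or replicate term, or as fellow members of a role. Levels per 100 codons, coordinates and 3′ regions come from GENCODE vM21, promoters from RefSeq (GRCm38.p6). No protein sequence was used here.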

Additional observations from a re-analysis of the deposited data

How the results depend on the processing

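Counts of called members, of all genes and of interferon-stimulated genes, and the medians of the members, were recomputed without the filter, with a minimum of 50, with the filter on unscaled columns, with adjustment over the 3 comparisons together, with the median of all genes or of the chromosome subtracted, and, chosen after seeing the data, with size factors from other low genes. The medians were also recomputed with pseudocounts of 1 and 10 added to the scaled values. Of 99 such values 95 stayed within 1.5 times the main count or close to the main median. With a minimum of 50, 1 member was called in GFP-TTP-AA against GFP-TTP and the median was -0.052. With the 6 members that share over 5% of their coding windows left out, also chosen after seeing the data, 0 members were called in GFP-TTP-AA against GFP and 1 in GFP-TTP-AA against GFP-TTP, since Trim13 and Trim30a are among the 6. Of 462 values of 22 named members, 455 kept their sign and their side of the threshold. These values cover the pseudocounts, the joint adjustment, the subtracted medians and the other size factors. With the pseudocounts no test was repeated, so only the sign could change, and the joint adjustment could change no sign. The minimum of 50 and the omission of members that share coding windows, where calls were lost, are not among the 462. With the chromosome median subtracted, signs changed in GFP-TTP against GFP for Trim33 (0.00605), Trim8 (-0.0712), Trim2 (0.00784) and Trim59 (0.17), in GFP-TTP-AA against GFP for Trim25 (0.0764), and in GFP-TTP-AA against GFP-TTP for Trim35 (0.0203). With size factors from medians over the genes of at most 0.15, Trim27 changed sign in GFP-TTP-AA against GFP-TTP (0.00175). Under that setting 315 genes in place of 308 were called in GFP-TTP-AA against GFP. No paired analysis was possible because the deposited values are fitted with the replicate term and hold no residual. For the same reason the fit without that term, leaving out single replicates and edgeR were not run.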

Other observations

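The enzymes and partners that TRIM proteins work with were also measured. Of 15 E2 and ubiquitin genes, 3 rose in GFP-TTP-AA against GFP-TTP cells and none fell, where 5.49% of all genes were called higher. These were Ube2e3 (0.61, SE 0.20, Wald adjusted p = 0.03), Ube2l3 (0.53, SE 0.16, Wald adjusted p = 0.0177) and Ube2n, the E2 that builds K63-linked chains (0.47, SE 0.16, Wald adjusted p = 0.0417). None of the 15 passed in GFP-TTP against GFP or in GFP-TTP-AA against GFP, where 2.09% and 3.05% of all genes did. Of 15 TIF1 corepressor partners, 2 fell in GFP-TTP-AA against GFP-TTP cells, where 4.76% of all genes were called lower. These were the remodelling subunits Chd3 (-0.75, SE 0.17, Wald adjusted p = 0.000414) and Chd4 (-0.43, SE 0.12, Wald adjusted p = 0.00724), while Trim28, which recruits Chd3, had -0.05 (SE 0.12).

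Trim47 and Trim65 overlap on the same strand of chromosome 11, and 12.9% of the coding windows of Trim65 are shared with Trim47. Trim65 fell with the replicate number by 0.98 between replicates 1 and 3 on the log2 scale, and Trim47 by 0.19.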
